A study of Mus musculus with 5 samples.

Results

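The genes described here are 10 interferon-inducible GTPases of the mouse, 6 immunity-related GTPases (IRG: Irgm1, Irgm2, Igtp, Iigp1, Ifi47 and Tgtp1) and 4 guanylate-binding proteins (GBP: Gbp2, Gbp3, Gbp7 and Gbp9). They were taken by name from the 24399 genes of the count table, with the RefSeq transcript of most counts kept for each gene, and all 10 had enough counts to be tested. The RNA came from LSK cells, the Lin- Sca1+ cKit+ bone marrow fraction in which stem cells and early progenitors of blood are found, sorted from C57BL/6 mice aged 12 months. The 3 libraries titled KO carry the genotype Aid+/- in their genotype field, while the series design speaks of germ line Aid knockout animals; the 2 WT libraries are given as wild type. Because the titles and the genotype field differ, the libraries are called KO-titled. Nothing in the labels ties a library to its own animal, and every p-value therefore measures a spread between libraries that may be technical.

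IRG and GBP proteins belong to the cell's own defence against intracellular parasites and bacteria, and interferon-gamma is their main inducer in mice. Interferon-gamma binds its receptor, JAK kinases pass the signal on, and transcription factors, among them the interferon regulatory factors, act on promoter elements called GAS and ISRE. Among the IRG proteins, Irgm1, Irgm2 and Igtp sit on the cell's own membranes and hold the effector IRGs inactive there. The effectors, among them Iigp1, Tgtp1 and Ifi47, load onto the vacuoles of pathogens, as GBPs do. In mice, loss of Irgm1 is known to cause excess proliferation and poor function of haematopoietic stem cells under interferon-gamma.

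Most of the promoters searched held letters of an interferon element close to the start of transcription. RefSeq promoter windows of the build GRCm38.p6, running from 250 bases before to 50 bases after the annotated start, were matched by symbol for 8 of the 10 genes. The ISRE was searched as GAAA, any 2 bases and GAAA on both strands and the GAS element as TTCNNNGAA, which reads the same on both strands. An ISRE match was present in 7 of the 8 genes, against 3.44% of all 32851 windows of this length. A GAS match was present in 4 of the 8, against 8.3% of all windows, and both elements in the same 4 genes (Igtp, Irgm2, Tgtp1 and Gbp7), against 0.454%. Ifi47 held neither set of letters in its window. The stretches that hold the matches are printed here to set the IRG promoters beside the GBP promoters; capitals mark GAS and ISRE matches, and each stretch reads 5′ to 3′ along its gene's strand.
Igtp, chr11:58199496-58199546, plus strand: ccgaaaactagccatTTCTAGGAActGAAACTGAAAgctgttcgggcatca
Irgm2, chr11:58214887-58214937, plus strand: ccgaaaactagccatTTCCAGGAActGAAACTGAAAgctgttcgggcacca
Tgtp1, chr11:48992299-48992349, minus strand: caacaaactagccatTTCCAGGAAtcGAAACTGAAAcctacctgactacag
Irgm1, chr11:48871420-48871465, minus strand: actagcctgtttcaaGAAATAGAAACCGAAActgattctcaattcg
Gbp2, chr3:142620589-142620628, plus strand: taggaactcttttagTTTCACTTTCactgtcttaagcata
Gbp3, chr3:142559984-142560029, plus strand: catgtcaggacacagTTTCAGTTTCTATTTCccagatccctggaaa
Gbp7, chr3:142530215-142530307, plus strand: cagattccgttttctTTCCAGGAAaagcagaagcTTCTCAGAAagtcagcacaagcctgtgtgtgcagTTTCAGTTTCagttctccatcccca

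In Igtp, Irgm2 and Tgtp1 a GAS match was followed after 2 bases by an ISRE match of the same letters, GAAACTGAAA. The ISRE began 34 bases before the start in Igtp, 64 bases before it in Irgm2 and 77 bases before it in Tgtp1. Irgm1 and Gbp3 each held a pair of overlapping ISRE matches, beginning 30 and 45 bases before the start. Relative to the direction of the gene, the ISRE lay on one strand in these 4 IRG genes and on the other in the 3 GBP genes. The windows of Igtp and Irgm2 were near copies, with 247 of 264 aligned bases identical (93.6%). A match is a description of the letters and does not show binding.

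The IRG genes stood higher in the KO-titled libraries, while none of the GBP genes passed the test; the difference between the families was not tested. Of the 10 genes, 4 rose and 0 fell at an adjusted p under 0.05 (edgeR's quasi-likelihood test, two-sided, Benjamini-Hochberg adjustment over 14565 genes), against 0.79% of all tested genes called higher and 1.18% called lower. All 4 were IRG genes: Tgtp1, Iigp1, Igtp and Ifi47. Every KO-titled library lay above both WT libraries for 6 of 6 IRG genes and for 0 of 4 GBP genes, and 16.5% of all tested genes showed that order. The median log2 fold change, KO-titled over WT, was 0.50 for the IRG genes, -0.09 for the GBP genes and 0.29 for the 10 together, beside 0.001 for all tested genes. Without KO-titled library 3, without WT library 1 or without WT library 2, 0 of the 10 genes passed, where 0.293%, 0.0133% and 0.0734% of all tested genes were called higher in those fits in turn. The log2 fold changes of the 6 IRG genes in them lay between 0.20 and 0.85. Without KO-titled library 1, 5 of the 10 rose, against 2.17% of all tested genes. Levels below are CPM, counts per 1000000 counts of the library total after TMM scaling for composition, with mean ± SD over n = 3 KO-titled and n = 2 WT libraries.

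**Figure D1:**
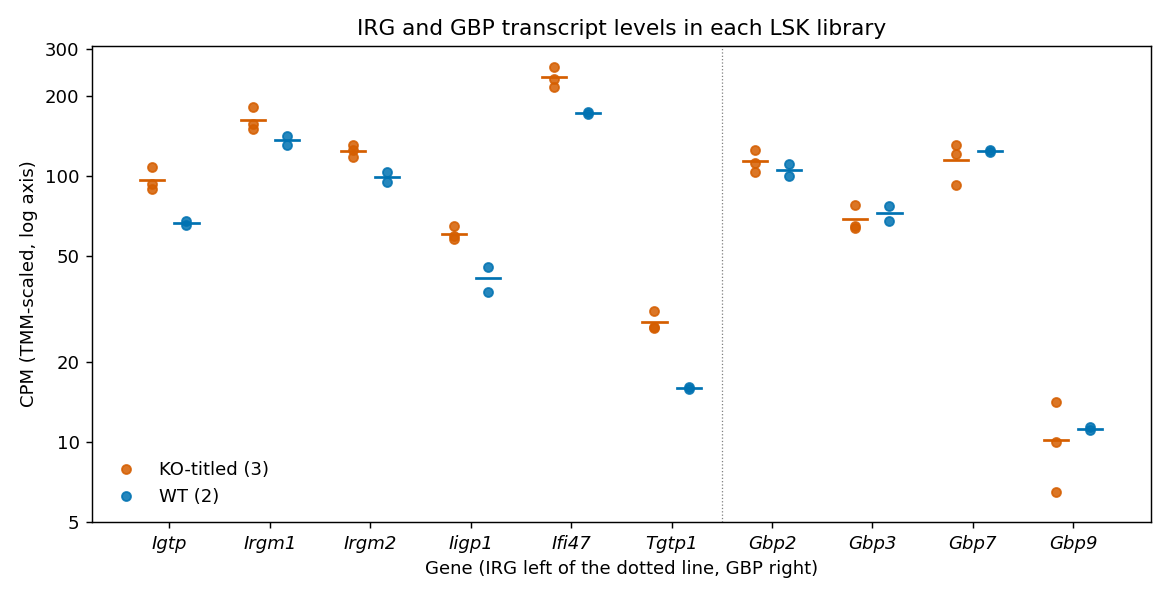
Level of each gene in every library, in CPM on a log axis, with KO-titled libraries left of WT libraries and bars at the group means. The 3 KO-titled points lie above both WT points for the 6 IRG genes and overlap them or surround them for the 4 GBP genes.

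Of the regulatory IRGs, Igtp rose and Irgm1 and Irgm2 did not pass the test. Igtp, also named Irgm3, had 108, 89.6 and 93.4 CPM in KO-titled libraries 1 to 3, against 65.5 and 67.5 CPM in the WT libraries. All KO-titled values were above both WT values, with library 1 the highest. Igtp averaged 96.9 ± 9.49 CPM in KO-titled and 66.5 ± 1.4 CPM in WT libraries, a log2 fold change of 0.54 ± 0.11 (SE, edgeR adjusted p = 0.0198). Irgm2, its neighbour on chromosome 11, had 130.2, 118 and 125 CPM in KO-titled libraries, against 103 and 94.6 CPM in WT libraries. The groups did not overlap, but the log2 fold change of 0.33 ± 0.09 missed the threshold (edgeR adjusted p = 0.117). Irgm1 had 149.8, 182 and 157 CPM in KO-titled libraries and 142 and 131 CPM in WT libraries. Its KO-titled library 2 was the highest and its library 1 stood close to WT library 1, and the log2 fold change was 0.26 ± 0.10 (edgeR adjusted p = 0.270). Irgm1 passed when KO-titled library 1 was left out (log2 fold change 0.32, edgeR adjusted p = 0.0412). Igtp and Irgm2 share sequence: 12.3% of the 50-base words of the Igtp transcript also occur in Irgm2, so a part of their reads may not be separable.

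The 3 effector IRGs among the 10 genes, Tgtp1, Iigp1 and Ifi47, rose. Tgtp1, also named Irgb6, showed the largest log2 fold change of the 10 genes. It had 27.1, 26.9 and 31.0 CPM in KO-titled libraries, against 16.1 and 15.8 CPM in WT libraries, so that each group was tight and the gap between them was wide. Tgtp1 averaged 28.3 ± 2.33 CPM in KO-titled and 15.9 ± 0.23 CPM in WT libraries, and the log2 fold change was 0.83 ± 0.15, or 1.78-fold (edgeR adjusted p = 0.0140). Tgtp1 has a near copy, Tgtp2, which holds 89.4% of its 50-base words. How the authors treated reads shared by both genes is not given in the sources used here, so the level of each is uncertain. Tgtp2 moved the same way, with 73.0, 81.3 and 88.4 CPM in KO-titled against 46.0 and 47.3 CPM in WT libraries (log2 fold change 0.79 ± 0.11, edgeR adjusted p = 0.00352).

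Iigp1, also named Irga6, is the effector IRG best known from work on Toxoplasma vacuoles. Its level was 59.2, 58.1 and 65.0 CPM in KO-titled libraries, against 36.7 and 45.7 CPM in WT libraries. The WT libraries differed from each other more than the KO-titled ones did, and no values overlapped. The log2 fold change was 0.56 ± 0.12 (edgeR adjusted p = 0.0390), and it was 0.42 without WT library 1 and 0.73 without WT library 2. Iigp1 also lost its call without KO-titled library 2 (edgeR adjusted p = 0.0550) and with summed transcripts (edgeR adjusted p = 0.0507). The lower of its 2 transcripts held 99.86% of the counts of the kept one, so the sum may count the same reads more than once.

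Ifi47, also named Irgd, was the most abundant of the 10 genes. It had 256, 217 and 231 CPM in KO-titled libraries, against 170.3 and 174 CPM in WT libraries. Library 1 was the highest of the KO-titled libraries, as for Igtp and Irgm2, and the WT values were nearly equal. Ifi47 averaged 235 ± 20.1 CPM in KO-titled and 172 ± 2.34 CPM in WT libraries, a log2 fold change of 0.45 ± 0.09 (edgeR adjusted p = 0.0248). Its transcript shares 3.6% of 50-base words with Olfr56, the next tested gene on chromosome 11, which had a log2 fold change of 0.35 ± 0.27 (edgeR adjusted p = 0.623).

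None of the 4 GBP genes passed, at a log2 fold change between -0.14 and 0.11. Gbp2, a GBP that acts on Toxoplasma vacuoles and on bacteria, had 125, 103 and 112 CPM in KO-titled libraries and 111 and 99.9 CPM in WT libraries. Its groups overlapped (log2 fold change 0.11 ± 0.10, edgeR adjusted p = 0.718). Gbp3 had 65.0, 64 and 77.6 CPM in KO-titled and 77.2 and 67.6 CPM in WT libraries, with the highest value of each group almost equal (log2 fold change -0.07 ± 0.12, edgeR adjusted p = 0.850). Gbp7, a GBP of host defence against Toxoplasma and mycobacteria, had 92.4, 121 and 131 CPM in KO-titled and 126 and 123 CPM in WT libraries. KO-titled library 1 stood alone below the other 4 libraries, and the log2 fold change was -0.12 ± 0.13 (edgeR adjusted p = 0.762). Gbp9, the least abundant of the 10, had 6.51, 9.98 and 14.2 CPM in KO-titled and 11.1 and 11.4 CPM in WT libraries. Its KO-titled values ran on both sides of the WT values, which leaves the log2 fold change of -0.14 ± 0.28 the least precise of the 10 (edgeR adjusted p = 0.891). The sign was positive for Gbp7 (0.02) and Gbp9 (0.10) without KO-titled library 1, and for Gbp3 (0.03) without WT library 1. Of the 50-base words of the transcripts, 2.07% for Gbp2, 4.79% for Gbp3, 12.85% for Gbp7 and 9.56% for Gbp9 also occur in other genes. A part of the GBP reads may therefore not be separable either.

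**Figure D2:**
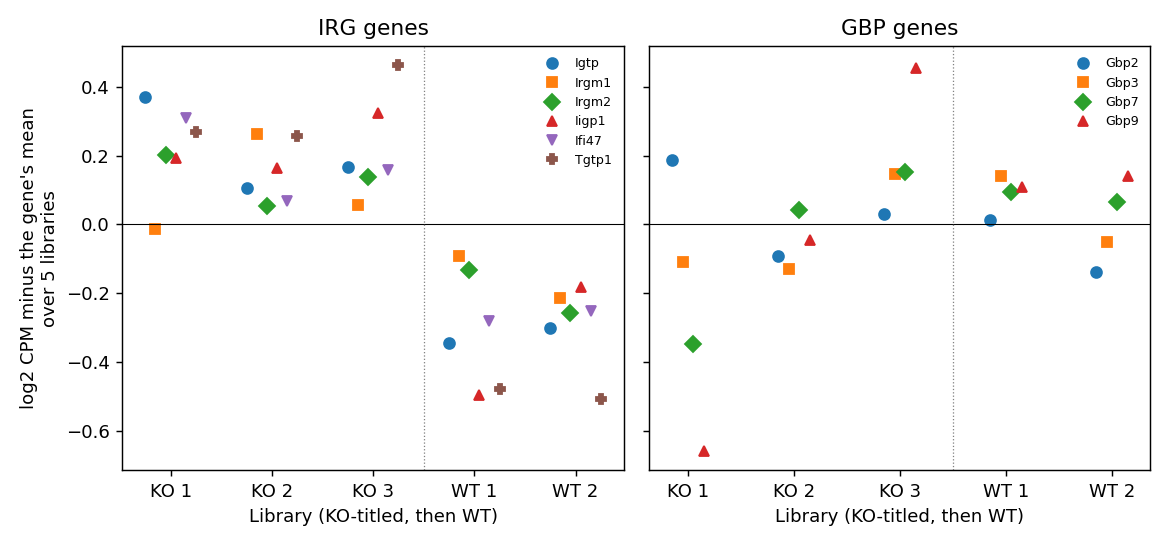
log2 CPM of each gene in each library minus the gene's mean over the 5 libraries, for IRG genes (left) and GBP genes (right). The IRG markers lie higher in the KO-titled than in the WT libraries, while the GBP markers spread around 0, with Gbp7 and Gbp9 lowest in KO-titled library 1.

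The libraries can be read as a whole from these profiles. The summed level of the 6 IRG genes was 730, 690 and 702 CPM in KO-titled libraries 1 to 3, against 534 and 528 CPM in the WT libraries. The summed level of the 4 GBP genes was 289, 298 and 335 CPM in KO-titled libraries, against 325 and 302 CPM in the WT libraries. The mean log2 CPM of the IRG genes exceeded that of the GBP genes by 1.05, 0.81 and 0.62 in KO-titled libraries and by 0.20 and 0.31 in WT libraries. Among the KO-titled libraries, the summed GBP level was lowest in library 1 and highest in library 3, while the summed IRG level was highest in library 1.

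Per transcript length the 10 genes spanned a wide range. In CPM per kilobase of transcript, Ifi47 was highest with 139 ± 11.9 in KO-titled and 102 ± 1.38 in WT libraries, followed by Irgm1 with 72.1 ± 7.36 in KO-titled and 60.3 ± 3.54 in WT libraries. Igtp stood at 47.9 ± 4.69 in KO-titled and 32.9 ± 0.69 in WT libraries, and Gbp2 at 45.1 ± 4.41 in KO-titled and 41.9 ± 3.08 in WT libraries. Igtp and Gbp2 overlapped in the KO-titled libraries, while in the WT libraries Gbp2 was above Igtp without overlap. Irgm2 (35.9 ± 1.83 in KO-titled, 28.6 ± 1.77 in WT libraries) came next, followed by Gbp3 (25.7 ± 2.83 in KO-titled, 27.0 ± 2.52 in WT libraries), and these overlapped in the WT libraries. Gbp7 (20.4 ± 3.56 in KO-titled, 22.1 ± 0.32 in WT libraries) and Iigp1 (19.5 ± 1.19 in KO-titled, 13.2 ± 2.03 in WT libraries) overlapped in the KO-titled libraries, and Tgtp1 (10.04 ± 0.83 in KO-titled, 5.65 ± 0.08 in WT libraries) and Gbp9 (2.33 ± 0.87 in KO-titled, 2.56 ± 0.04 in WT libraries) were lowest in both groups.

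The rise was read along the chromosomes as well, using gene order in the RefSeq table of GRCm38.p6. Irgm1, Tgtp1 and Ifi47 lie in one stretch of chromosome 11 and Igtp and Irgm2 in another, Iigp1 lies on chromosome 18, Gbp2, Gbp3 and Gbp7 on chromosome 3 and Gbp9 on chromosome 5. In the first stretch, Gm12185 and Psme2b are the tested genes between Irgm1 and the Tgtp genes with more than 5 CPM in every library, and both are named after their values were seen. Gm12185 rose, with 23.4, 17.2 and 22.9 CPM in KO-titled against 8.21 and 11.3 CPM in WT libraries (log2 fold change 1.12 ± 0.21, edgeR adjusted p = 0.0164). Psme2b had a log2 fold change of 0.03 ± 0.11 (edgeR adjusted p = 0.935). Beyond the second stretch, Zfp692 (0.19 ± 0.26) and Zfp672 (0.12 ± 0.14) did not pass (edgeR adjusted p = 0.811 and 0.769). On chromosome 18, Smim3, the tested gene after Iigp1 and also named after its values were seen, fell by 0.53 ± 0.12 on the log2 scale (edgeR adjusted p = 0.0365). Among the neighbours named in this paragraph, Gm12185 rose, Smim3 fell and Psme2b, Zfp692 and Zfp672 did not pass. Whether Gm12185 itself belongs to the IRG family was not examined. Gm12185 lost its call without KO-titled library 3 or either WT library, and Smim3 also without KO-titled library 2.

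Relatives of the 10 genes leaned upwards but few passed. Of 17 other GTPase genes of these families, 15 were tested. Of these, 1 rose (Tgtp2) and 0 fell, against 0.79% and 1.18% of all tested genes called higher and lower. All 15 had a log2 fold change above 0, with a median of 0.45, while 7299 of all 14565 tested genes were above 0. Some of the 15 were low and imprecise, with an SE of 1.10 for Gbp10 and 0.88 for Gbp11. Gm12250, which encodes the effector Irgb10 and neighbours Igtp, had 57.4, 66.1 and 67.2 CPM in KO-titled against 55.1 and 49.8 CPM in WT libraries (log2 fold change 0.28 ± 0.11, edgeR adjusted p = 0.30). Gbp4, Gbp8 and Gbp10 share a stretch of chromosome 5 with Gbp9. Gbp4 had 12.8, 9.39 and 24.3 CPM in KO-titled against 5.67 and 11.1 CPM in WT libraries, and Gbp6 had 10.02, 15.7 and 30.03 CPM in KO-titled against 11.4 and 11.1 CPM in WT libraries. KO-titled library 3 was the highest for both, as it was for Gbp9, Gbp10 (4.001 CPM, against at most 1.33 CPM in any other library) and Gbp11 (3.77 CPM, against at most 1.05 CPM). None of them passed, with log2 fold changes of 0.88 ± 0.42 for Gbp4 and 0.72 ± 0.39 for Gbp6 (edgeR adjusted p = 0.40 and 0.47). Gbp2b had 0 counts in each KO-titled library, against 7 and 9 counts in the WT libraries, and was too low to be tested.

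**Figure D3:**
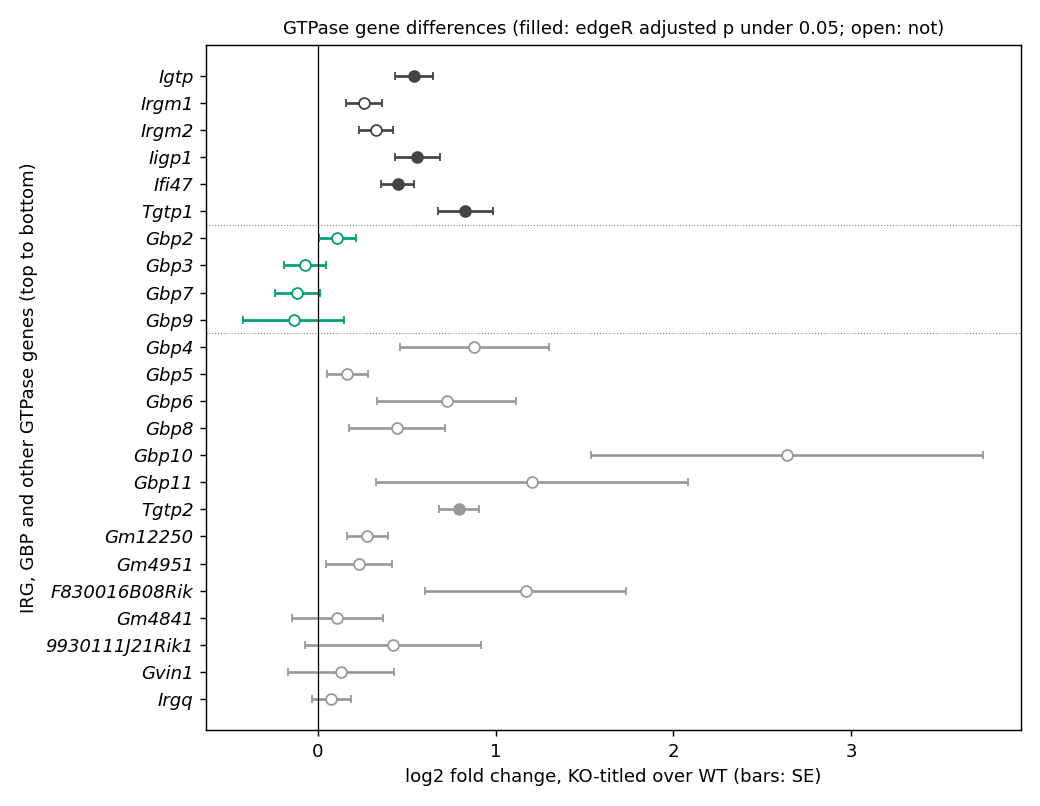
log2 fold change of KO-titled over WT libraries with its SE for the IRG genes, the GBP genes and the other GTPases of at least 1 CPM, from top to bottom. Filled points passed an adjusted p under 0.05; Tgtp2 is the filled point among the other GTPases, and the wide bars belong to low or scattered GBP genes.

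Along the pathway that induces these genes, the genes of the receptor and its kinases did not pass the test. The 16 tested genes of interferon-gamma signalling had a median log2 fold change of -0.01. Ifng, the cytokine itself, had 0 counts in all 5 libraries, which allows up to 0.076 to 0.1 CPM at a floor of 3 counts. The receptor chains Ifngr1 (155 ± 7.21 CPM in KO-titled and 176 ± 5.37 CPM in WT libraries) and Ifngr2 (32.8 ± 2.54 CPM in KO-titled and 41.3 ± 4.41 CPM in WT libraries) did not pass (edgeR adjusted p = 0.367 and 0.279). Their kinases Jak1 (log2 fold change 0.001 ± 0.073) and Jak2 (-0.01 ± 0.09) did not pass either. Irf1, an interferon regulatory factor, stood at 141 ± 10.4 CPM in KO-titled and 134 ± 7.07 CPM in WT libraries (log2 fold change 0.07 ± 0.09), and Irf8 had a log2 fold change of 0.27 ± 0.12 (edgeR adjusted p = 0.807 and 0.355). Socs1, the main feedback inhibitor of interferon-gamma signalling, was low at 3.39 ± 1.01 CPM in KO-titled and 3.50 ± 0.70 CPM in WT libraries (edgeR adjusted p = 0.978). Socs3, an inhibitor best known for cytokine receptors of the interleukin-6 type, fell (log2 fold change -2.05 ± 0.19, edgeR adjusted p = 1.92e-04).

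Among other interferon targets, genes of MHC class II and a pair of type I genes rose. The counts below stand beside 0.79% of all tested genes called higher and 1.18% called lower. Of 25 tested genes that interferon-gamma is known to raise, 4 rose and 0 fell (median 0.14), namely Cd74, H2-Aa, H2-Ab1 and H2-Eb1 of the MHC class II machinery, with log2 fold changes of 0.89 to 1.32. Of 42 type I interferon genes, 2 rose and 0 fell (median 0.23): Irf7 (0.68 ± 0.15, edgeR adjusted p = 0.0423), a factor that amplifies the type I response, and Rtp4 (0.61 ± 0.13, edgeR adjusted p = 0.0280). Of 19 genes of the autophagy machinery that places IRG and GBP proteins and of the inflammasome they act on, 0 rose and 1 fell (median 0.04). That gene was Casp4, the mouse caspase-11 that senses bacterial lipopolysaccharide, with 30.7, 22.0 and 24.1 CPM in KO-titled against 43.8 and 39.6 CPM in WT libraries (log2 fold change -0.70 ± 0.16, edgeR adjusted p = 0.0384). Without KO-titled library 1 (2.17% of all tested genes higher), 13 type I genes and 7 of the interferon-gamma targets rose, and without KO-titled library 2 or 3 or either WT library Irf7, Rtp4 and Casp4 did not pass. With summed transcripts they did not pass either (edgeR adjusted p = 0.0504 for Irf7, 0.0634 for Rtp4 and 0.0785 for Casp4), which left 0 type I genes and 0 partner genes called. Tgtp2, H2-Aa, H2-Ab1 and H2-Eb1 lost their calls when either WT library was left out and Cd74 when WT library 1 was, while Socs3 passed with any 1 library left out.

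**Figure D4:**
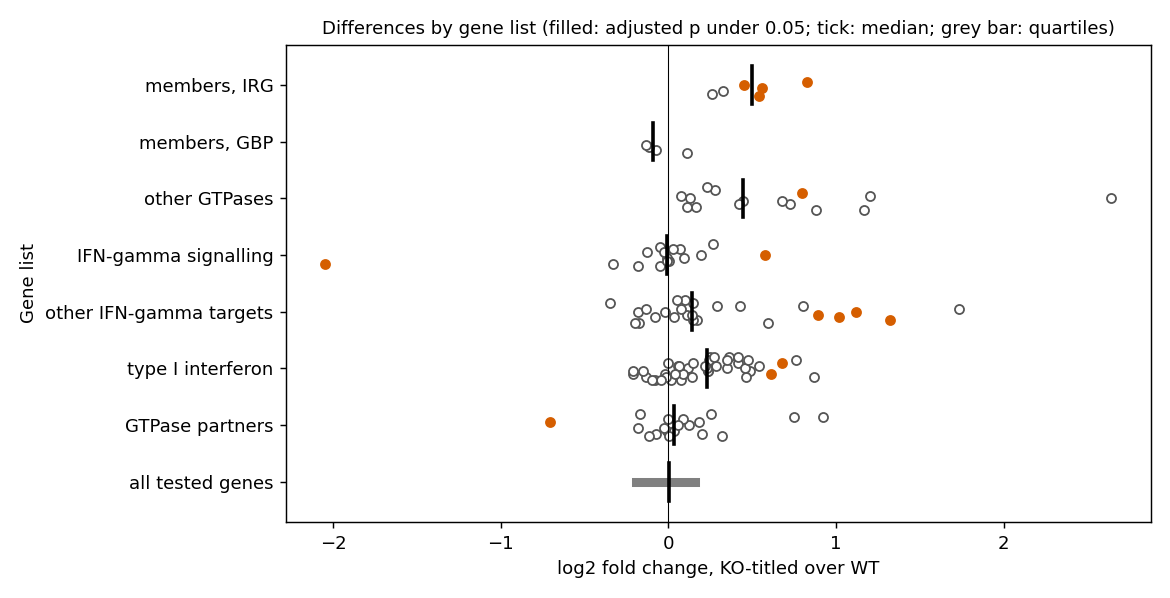
log2 fold change of KO-titled over WT libraries for each tested gene of 7 gene lists, with the list median as a black tick and the quartiles of all tested genes as a grey bar. Filled points passed an adjusted p under 0.05; the IRG points lie right of 0 and the GBP points around it.

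The 5 tested genes on no list whose levels followed the mean profile of the 10 GTPases most closely over the 5 libraries were Pon3, Slc39a3, Myl12a, Mthfd1 and Pagr1a, by the root mean square difference of centred log2 CPM (0.009 to 0.022). Pon3 had 37.5, 38.0 and 41.8 CPM in KO-titled and 32.6 and 31.8 CPM in WT libraries. The mean mixes both families and is not close to most of the 10: ranked the same way among the tested genes, they stood between 497 (Irgm2) and 10587 (Gbp9). None of the 5 passed the test (edgeR adjusted p of 0.176 to 0.468).

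Markers of the sorted cells and of other blood cell types were read in the same libraries. Over all tested genes, 0.79% were called higher and 1.18% lower. Total counts over all transcripts ran from 57535625 to 63736139 in KO-titled and from 48113632 to 62238842 in WT libraries. The totals behind CPM cover the tested genes with 1 transcript per gene. Before TMM scaling they ran from 36054921 to 39684927 in KO-titled and from 29959785 to 38667232 in WT libraries. The 12 LSK marker genes were all tested and 0 passed, with Kit at 1119 ± 29.6 CPM in KO-titled and 1216 ± 15.5 CPM in WT libraries. Ly6a, which encodes the Sca1 used in the sort and is itself interferon-inducible, stood at 97.4 ± 7.04 CPM in KO-titled and 78.4 ± 5.03 CPM in WT libraries (log2 fold change 0.31 ± 0.10, edgeR adjusted p = 0.175). The summed level of 17 T and NK cell markers was 152 to 182 CPM in KO-titled and 188 to 191 CPM in WT libraries, with 0 of 17 higher and 1 lower. That of 14 macrophage and dendritic cell markers was 291 to 324 CPM in KO-titled and 320 to 355 CPM in WT libraries, with 0 called, and most of it was Lyz2 (179 to 217 CPM in KO-titled and 210.5 to 239 CPM in WT libraries). Its members went both ways: 5 of 14 lay higher in every KO-titled library than in both WT libraries and 2 of 14 lower. Over all tested genes these shares were 16.5% higher and 16.3% lower. The dendritic cell markers Siglech, Xcr1, Itgax and Clec9a were among the 5, in the same direction as the IRG and MHC class II genes. Xcr1 had 13.04, 7.55 and 13.4 CPM in KO-titled against 5.14 and 4.78 CPM in WT libraries (log2 fold change 1.19 ± 0.29, edgeR adjusted p = 0.0574), and Siglech had 5.79, 4.02 and 2.76 CPM in KO-titled against 1.37 and 1.36 CPM in WT libraries (1.62 ± 0.45, edgeR adjusted p = 0.101). Csf1r and C1qa, markers of macrophages, were the 2 that lay lower. For 10 B cell markers it was 56.01 to 60.5 CPM in KO-titled and 47.97 to 57.7 CPM in WT libraries, also with 0 of 9 tested genes called. The 11 erythroid markers summed to 242 to 342 CPM in KO-titled and 139 to 151 CPM in WT libraries, with 4 higher, and the 10 neutrophil markers to 2999 to 3728 CPM in KO-titled and 4387 to 4693 CPM in WT libraries, with 4 lower. Most of the neutrophil sum was Mpo, which myeloid progenitors also express. No marker of these lists was at 0 in every library. In bulk RNA, fewer cells of a type and less RNA per cell cannot be told apart, and the part of these other cells in the IRG levels was not tested.

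**Figure D5:**
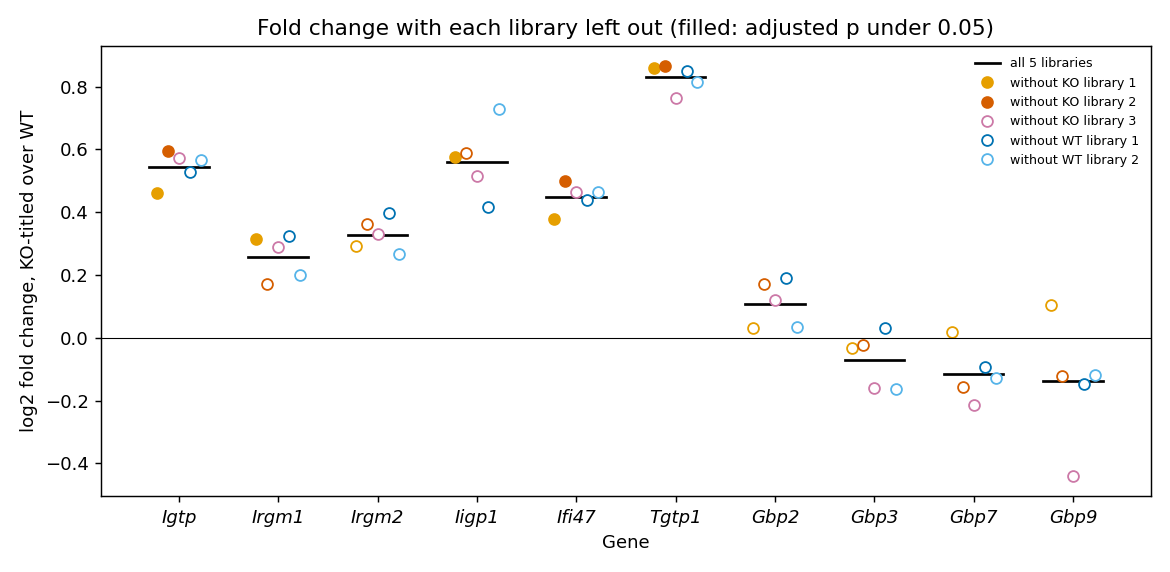
log2 fold change of each gene over all 5 libraries (black bar) and with each library left out (points; filled where the adjusted p was under 0.05). The IRG points stay above 0, from 0.17 for Irgm1 to 0.86 for Tgtp1, while Gbp3, Gbp7 and Gbp9 cross it. Every KO-titled library lay above both WT libraries for the IRG genes, so their sign could hardly turn.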

How the data were processed

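The authors deposited integer counts of reads per RefSeq transcript, 33862 in all, for each of 5 libraries made with a stranded mRNA kit (per the labels' protocols). The tools and build named in the submitters' processing notes are featureCounts, Subread 1.4.5-p1, STAR and mm9 (NCBIM37). No source used here gives their settings, their use of strand or the handling of shared reads. Symbols were matched through RefSeq for GRCm38.p6 (33485 transcripts) or GENCODE (188), and 189 transcripts kept their own ID. Each gene was represented by its transcript of most counts (24399 genes).

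After filterByExpr and TMM scaling, KO-titled libraries were compared with WT by edgeR 4.0.16 (R 4.3.3) with a robust quasi-likelihood fit and a threshold of 0.05; the SE is the size of the log2 fold change over the root of F. The procedure was run on simulated data with the same spread for every gene, which does not show how well it performs on these libraries. Alternatives were other scalings, DESeq2 1.42.0, no count filter, summed transcripts, another threshold, a replicate block, each library left out and, added after the data were seen, a transcript length offset. Lengths and 50-base words came from GENCODE transcripts. The 10 genes, the gene lists and the naming rule (all 10, the called genes of each pathway list, the core of interferon-gamma signalling and the 5 nearest profiles) were chosen with earlier results of these data known. The chromosome neighbours, the uncalled GTPase relatives, Kit, Ly6a and the other markers fall outside that rule, and they were picked with their values already seen. Floors of 3 counts cover counting error only. Some results that the rule covers are not reported here.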

Additional observations from a re-analysis of the deposited data

How the results depend on the processing

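The count of all called genes was 287 and became 524 with DESeq2, 455 with no count filter, 454 at an adjusted p under 0.10 and 160 under a replicate block, with the number of a library as a term. With 1 library left out it ran from 6 to 675, and with the length offset it was 347. With summed transcripts, which may count a read once for each transcript of its gene, it was 219. Of the 10 GTPases, 4 were called higher, and 0 with the replicate block (0.371% of all tested genes higher) and 3 with summed transcripts (0.559%). Without KO-titled library 1, 2 or 3 the count was 5, 3 and 0 in turn, against 2.17%, 0.738% and 0.293% of all tested genes. Other scalings, DESeq2, no count filter, the length offset and the other threshold each gave 4, where 0.755% to 1.67% of all tested genes were called higher. Without a WT library the remaining WT sample is assumed to vary like the others. The median log2 fold change of the 10 ran from 0.23 to 0.36 with 1 library left out. With 1 library left out, the log2 fold change ran from -0.163 to 0.0311 for Gbp3, from -0.214 to 0.0187 for Gbp7 and from -0.440 to 0.103 for Gbp9, so that the sign turned. The cause of these shifts was not tested. Deviations from the group mean were hardly correlated between libraries of the same number (correlation across genes 0.04 for number 1 and 0.02 for number 2). With 2 WT libraries, their deviations mirror each other, so these values are not separate checks. Whether libraries of the same number were prepared together cannot be told from them. Number 3 occurs only among the KO-titled libraries, so the fold changes under the replicate block rest on the libraries of numbers 1 and 2. The block is therefore not a separate check from leaving out KO-titled library 3. The median log2 fold change of the 10 was 0.30 with the block and 0.31 without that library. The 6 IRG genes kept a positive log2 fold change in all 12 alternatives. For these genes every KO-titled library lay above both WT libraries. Leaving out 1 library could therefore hardly turn the sign, which is not a separate check. With 3 against 2 libraries, a GBP gene that missed the threshold is not shown to be equal in both groups.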
